A study of Mus musculus with 2 samples.

Results

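Cd40, Cd80, Cd86, Icosl and Pdcd1lg2, 5 of the 31053 genes in the deposited feature list, were followed through single cells sorted near the cribriform plate of mice. They were chosen by name as genes of T cell costimulation, with no measured value in the rule. Earlier results of these data were known at the time of that choice. All 5 were detected in both libraries of the series. A T cell needs its antigen presented on a major histocompatibility complex (MHC) molecule and a second, costimulatory signal from the presenting cell. CD80 and CD86 give that signal through CD28 and are bound more tightly by the inhibitory receptor CTLA-4, while ICOS ligand, encoded by Icosl, binds ICOS. PD-L2, encoded by Pdcd1lg2, binds the inhibitory receptor PD-1. CD40 works the other way round: it is a receptor on the presenting cell, and CD40 ligand on a helper T cell engages it and drives that cell to express more CD80 and CD86. Microglia at rest carry little MHC class II, and interferon gamma, a T cell cytokine, induces the class II genes through their transactivator CIITA.

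The animals were 10-week-old female wild-type C57BL/6J mice, either healthy or with experimental autoimmune encephalomyelitis (EAE), an autoimmune inflammation of the brain and spinal cord. The cells of 5 mice were pooled per group, so each of the 2 groups is 1 sample. The sort aimed at lymphatic endothelium (podoplanin and CD31 positive, CD45 negative), taken from cribriform plate with olfactory bulb and nasal mucosa. Barcodes carry suffix 1 or 2 in a single count matrix, and no label or file used here states which suffix holds the healthy and which the EAE pool. The libraries are therefore described side by side as library 1 and library 2, with no comparison of disease states, no replicate and no p-value.

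Of 3838 barcodes in library 1, 3406 held at least 200 genes and at most 20% mitochondrial unique molecular identifiers (UMIs, counted transcript molecules), as did 1922 of 2434 in library 2. The kept cells had medians of 7334 and 9782.5 UMIs. By transcripts they were mostly microglia-like, the macrophage type of the brain: clusters given that name held 92.7% and 89.3% of them. Clusters named border macrophage-like, olfactory ensheathing glia-like, olfactory or nasal epithelium-like and mixed also had all 7 microglial markers at 100 CPM or more (CPM: UMIs of a gene per 1000000 UMIs). The 7 lymphatic endothelial markers summed to 28.3 and 6.90 CPM, with 2 of the 7 at 0 in library 2, which goes against the labelled tissue. The values below are thus chiefly those of microglia-like cells. The libraries shared 8 barcode sequences, and no doublet caller was run. All intervals are exact 95% intervals that cover counting error only.

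Cd40 had the largest ratio between the libraries, although the interval of the sparse Pdcd1lg2 overlaps its own. In library 1 it had 37 UMIs among 3406 cells, which is 1.44 CPM (interval 1.01 to 1.98). In library 2 it had 491 UMIs among 1922 cells, or 24.2 CPM (22.1 to 26.4). The intervals lay far apart, and the ratio of library 2 over library 1 was 16.9-fold (12.1 to 24.2). At least 1 Cd40 UMI was found in 21 cells of library 1 (0.617%) and 257 cells of library 2 (13.4%). After each cell was thinned to 1000 UMIs, the shares were 0.181% of 3319 cells and 2.10% of 1907 cells, so the difference was present at equal depth. Cd40 transcripts were concentrated in few cells: 29 cells of library 2 with 4 or more UMIs held 176 of its 491, and 3 such cells of library 1 held 15 of its 37.

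The library 1 value rested on a small set of cells. Clusters 9, 13 and 15, which were almost wholly cells of library 2, contained 23 microglia-like cells of library 1. Those 23 cells held 18 of the 37 Cd40 UMIs, all in 4 cells, at 60.6 CPM (35.9 to 95.8), against 0.746 CPM in the rest of library 1. None of the 23 had a barcode sequence that occurs in library 2, and their class II chains summed to 1630 CPM. Without them the Cd40 ratio was 32.5-fold.

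Cd86, one of the B7 ligands of CD28 and CTLA-4, was widely detected in both libraries. It stood at 356 CPM in library 1 (9160 UMIs) and 411 CPM in library 2 (8337 UMIs), a ratio of 1.16-fold (1.12 to 1.19). The gene had a UMI in 86.2% and 90.5% of cells, and in 30.3% and 32.6% after thinning to 1000 UMIs. The libraries thus differed by more than counting error, but by a small amount.

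Cd80, the other B7 ligand of CD28 and CTLA-4, was the only member lower in library 2. It had 270 UMIs and 10.5 CPM (9.26 to 11.8) in library 1 and 160 UMIs and 7.89 CPM (6.71 to 9.21) in library 2. The level was 1.33-fold higher in library 1 (1.09 to 1.63). Thinned shares were 0.934% (0.635% to 1.32%) and 0.734% (0.402% to 1.23%), whose intervals overlap, so no difference in shares was detectable at that depth. At 5000 UMIs the shares were 5.30% (4.53% to 6.16%) and 3.18% (2.42% to 4.10%), with separate intervals.

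Icosl, encoding the ligand of ICOS on activated T cells, was at 40.8 CPM in library 1 (1050 UMIs) and 93.8 CPM in library 2 (1903 UMIs). That is a ratio of 2.30-fold (2.13 to 2.48), and 24.5% against 53.2% of cells had a UMI. At 1000 UMIs per cell the shares were 3.86% (3.23% to 4.57%) and 7.97% (6.79% to 9.28%). Icosl UMIs were spread over more cells than those of Cd40: 546 cells of library 2 had exactly 1 Icosl UMI and 90 had 4 or more. The 5% of library 2 cells with the most UMIs of each gene held 25.5% of Icosl and 66.4% of Cd40 UMIs. That share also depends on how sparse a gene is. It was 68.1% for Cd80, of which 0 cells had 4 or more UMIs.

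Pdcd1lg2 was near the limit of detection. Library 1 held 4 UMIs in 3 cells, and library 2 held 31 UMIs in 31 cells, 1 in each. The levels were 0.155 and 1.53 CPM, a ratio of 9.85-fold (3.48 to 38.4), and neither library allows its distribution over cells to be described closely.

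Against all genes, 3 of the 5 members (Cd40, Icosl and Pdcd1lg2) were at least 2-fold higher in library 2 and 0 were at least 2-fold lower. Of the 13891 genes with 20 or more UMIs, 14.2% were at least 2-fold higher in library 2 and 8.37% were at least 2-fold higher in library 1. Fold calls at low counts are partly counting error, which matters for Pdcd1lg2 here. Median log2 ratios were 1.203 over the members and 0.04 over all genes tested.

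**Figure D1:**
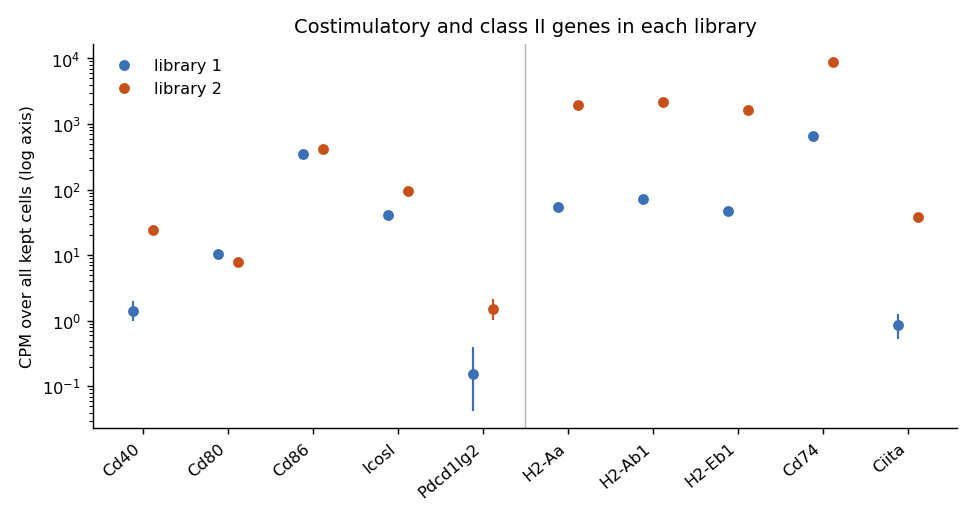
CPM over all kept cells of each library for the 5 costimulatory genes (left of the line) and 5 genes of the MHC class II pathway (right), on a log axis with exact Poisson 95% intervals, some hidden by the points. Cd40 stands at 1.44 and 24.2 CPM in libraries 1 and 2, whereas Cd86 stands at 356 and 411 CPM.

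Promoter sequences from RefSeq (GRCm38.p6; 250 bases before to 50 after the start) were at hand for 3 members, shown because Icosl and Pdcd1lg2 were higher and Cd80 was lower in library 2. They are chr10:78069118-78069417 for Icosl, chr16:38458683-38458982 for Cd80 and chr19:29410669-29410968 for Pdcd1lg2, all on the plus strand. Capitals mark matches, on either strand, to 2 motifs: AP-1 (TGANTCA), and a loose kB pattern of GGG and CC separated by 5 bases.
Icosl: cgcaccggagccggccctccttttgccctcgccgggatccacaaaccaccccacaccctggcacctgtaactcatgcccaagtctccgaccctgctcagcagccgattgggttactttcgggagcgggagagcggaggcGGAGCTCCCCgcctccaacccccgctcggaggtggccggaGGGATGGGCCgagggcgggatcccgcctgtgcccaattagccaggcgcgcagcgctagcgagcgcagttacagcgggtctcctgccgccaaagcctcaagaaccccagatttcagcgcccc
Cd80: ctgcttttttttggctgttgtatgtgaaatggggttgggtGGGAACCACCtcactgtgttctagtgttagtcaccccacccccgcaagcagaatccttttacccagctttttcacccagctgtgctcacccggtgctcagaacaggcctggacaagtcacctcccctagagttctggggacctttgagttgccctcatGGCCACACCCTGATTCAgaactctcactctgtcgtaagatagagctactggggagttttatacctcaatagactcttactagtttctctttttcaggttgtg
Pdcd1lg2: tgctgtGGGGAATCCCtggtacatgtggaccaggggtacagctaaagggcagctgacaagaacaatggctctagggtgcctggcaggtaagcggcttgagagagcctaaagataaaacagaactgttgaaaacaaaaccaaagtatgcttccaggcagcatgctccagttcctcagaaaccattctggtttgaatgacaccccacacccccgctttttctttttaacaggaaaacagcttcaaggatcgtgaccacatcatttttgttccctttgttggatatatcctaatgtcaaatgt
The Icosl window had 68% G or C bases and 26 CpG pairs, against 49.7% and 3 for Cd80 and 46% and 3 for Pdcd1lg2. The kB pattern matched at 2 places in Icosl, 2 in Cd80 and 1 in Pdcd1lg2, but 50.8% of 32851 mouse promoters of this length hold it. Cd80 alone of the 3 had an AP-1 match, at bases 209 to 215 of its window and directly after a kB match, a motif held by 7.81% of promoters. The interferon gamma activated sequence (GAS, TTCNNNGAA), held by 8.30% of promoters, and a pair of GAAA with 2 bases between, as in interferon-stimulated response elements (3.44%), had no match in these windows. A match is a description of letters and not a site of binding.

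MHC class II molecules display peptides to CD4 T cells. Transcripts of the 3 class II chain genes differed between the libraries by 29.3-fold to 36.4-fold, and their proteins were not measured. H2-Aa, the alpha chain of I-A, was at 54.1 and 1969 CPM, its partner beta chain H2-Ab1 at 72.7 and 2132 CPM, and H2-Eb1, the beta chain of I-E, at 46.6 and 1646 CPM. The invariant chain gene Cd74, at 663 and 8965 CPM, differed 13.5-fold. Ciita, which encodes the master transactivator of class II genes, had 22 UMIs in library 1 and 780 in library 2, at 0.854 and 38.5 CPM. After thinning to 1000 UMIs, 5.45% of library 1 cells and 80.7% of library 2 cells held a UMI of the 3 chains.

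Within library 2, Cd40 was higher in cells with more class II UMIs. Cells were grouped by their thinned UMIs of H2-Aa, H2-Ab1 and H2-Eb1 into 0, 1 to 2, 3 to 5, 6 to 10 and 11 or more. Cd40 was at 12.01, 18.8, 21.2, 31.1 and 36.7 CPM in those groups, which held 369, 353, 391, 469 and 325 cells. The top group stood 3.06-fold above the group with 0 (2.15 to 4.42), and 2.70-fold (1.88 to 3.96) within microglia-like clusters alone. Grouping on Cd74 in place of the chains gave 5.74-fold. Without cells carrying 2 or more markers of dendritic cells, B cells or border macrophages the value was 2.04-fold.

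Cd86 and Icosl varied less with class II. In the same order of groups Cd86 was at 332, 421, 421, 433 and 440 CPM, so the step lay between cells with 0 and all others. Icosl went from 73.95 through 81.0, 98.2 and 102 to 111 CPM. The top group over the group with 0 was 1.32-fold for Cd86 (1.23 to 1.43) and 1.51-fold for Icosl (1.28 to 1.77). Within microglia-like clusters these folds were 1.09 (1.01 to 1.18) and 1.23 (1.05 to 1.45), and on Cd74 they were 1.55 and 2.14. Cd80 showed no difference beyond counting error (6.00 and 7.34 CPM in the end groups, 1.22-fold, 0.662 to 2.28), nor did Pdcd1lg2 with 4 and 6 UMIs (1.61-fold, 0.383 to 7.78), whose fold was 0.418 without the cells carrying other cell types' markers.

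In library 1, 181 of 3319 cells held a thinned class II UMI. Cd40 was at 8.99 CPM in them (15 UMIs) and 0.915 CPM in the 3138 without (22 UMIs), a 9.82-fold difference (4.74 to 19.8). Few cells carried it: without the 23 library 1 cells in library 2 clusters, 4 and 15 UMIs remained, a 4.21-fold difference (1.02 to 13.2). All 15 UMIs lay in the 128 cells with 1 to 2 class II UMIs, while cells with more had 0. The fold was 2.65 on Cd74 and 23.2 without the cells carrying other cell types' markers. Cd86 (355 and 356 CPM), Icosl (43.1 and 40.7 CPM) and Cd80 (6.59 and 10.7 CPM; ratio 0.614, 0.303 to 1.12) did not differ beyond counting error.

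Comparing the libraries at equal class II gives a view less tied to the share of class II cells. Among cells with 0 thinned class II UMIs, Cd40 was at 0.915 CPM in library 1 and 12.01 CPM in library 2, 13.1-fold apart (7.70 to 23.0). Among cells with 1 to 2, it was at 12.8 and 18.8 CPM, a ratio of 1.47-fold whose interval (0.834 to 2.77) includes 1. Without the library 1 cells in library 2 clusters, the Cd40 levels at 1 to 2 were 3.80 CPM, on 4 UMIs, and 18.8 CPM. They were then 4.96-fold apart (1.85 to 18.7). Among cells with 3 to 5, library 1 had 0 Cd40 UMIs in 33 cells and library 2 had 92 UMIs in 391 cells, 21.2 CPM, with an interval of the ratio from 1.89 upward. Cells grouped at 0 were not alike in class II, since their unthinned counts gave 31.3 CPM of the chains in library 1 and 503 CPM in library 2. Nor were cells at 1 to 2, with 712 and 2203 CPM of the chains. Icosl differed 1.82-fold (1.58 to 2.08) at 0, 2.02-fold (1.48 to 2.81) at 1 to 2 and 2.06-fold (1.26 to 3.64) at 3 to 5. Its difference between the libraries was thus present at each of these class II levels. The Cd86 ratio of library 2 over library 1 was 0.934 (0.879 to 0.992) at 0 and 1.23 (1.10 to 1.38) at 1 to 2. Within microglia-like clusters the value at 0 turned to 1.13 (1.06 to 1.202), on 362 CPM in library 1 and 409 CPM in library 2, where 285 of the 369 cells at 0 were microglia-like.

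**Figure D2:**
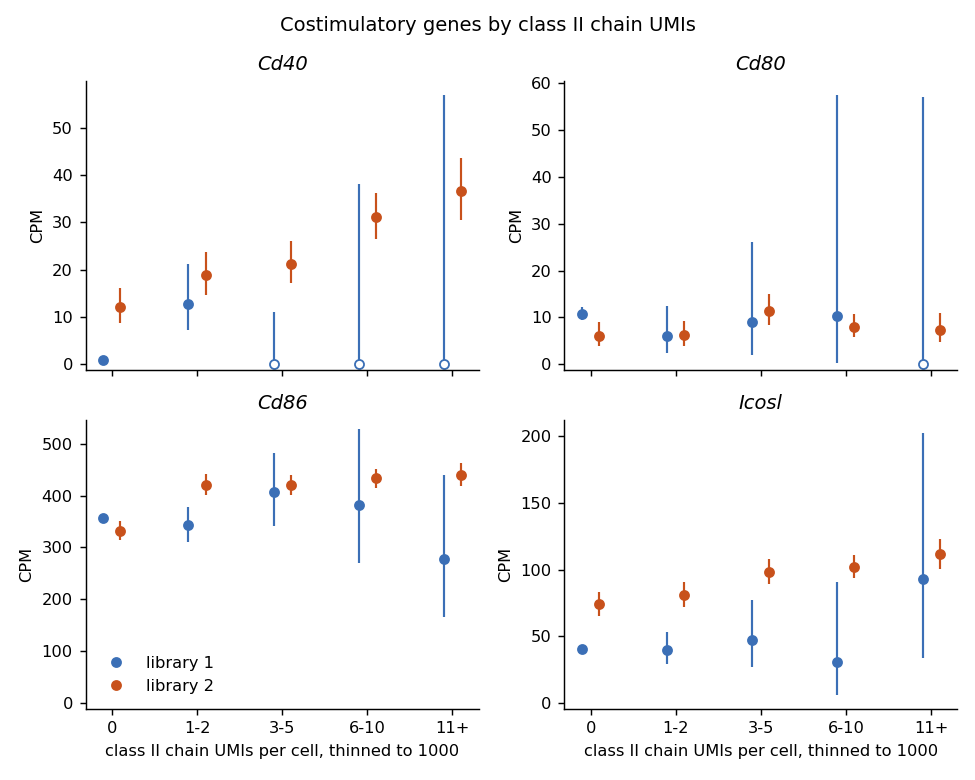
CPM of Cd40, Cd80, Cd86 and Icosl in cells grouped by class II chain UMIs after thinning to 1000 UMIs per cell, for library 1 (blue) and library 2 (orange), with exact Poisson 95% intervals and open symbols at 0 UMIs. In library 2 Cd40 goes from 12.01 to 36.7 CPM, and the library 1 intervals widen to the right because 12 and 8 cells fill the last groups.

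Counted as co-detection in single cells of library 2, class II was common among Cd40 cells and Cd40 uncommon among class II cells. At 1000 UMIs in library 2, 34 of 1538 class II cells (2.21%) and 6 of 369 other cells (1.63%) had a Cd40 UMI, a difference not detectable at that depth. At 5000 UMIs, an alternative chosen after seeing the data, the counts were 136 of 1639 (8.30%, 7.01% to 9.74%) and 2 of 154 (1.30%, 0.158% to 4.61%). These counts take in all kinds of cell and were not repeated within microglia-like clusters at that depth. At 1000 UMIs the Cd40 shares within those clusters were 2.31% (1.59% to 3.23%) and 1.40% (0.384% to 3.55%). Read the other way at 5000 UMIs, 98.6% of 138 Cd40 cells and 90.8% of the cells without Cd40 held class II. In library 1, 2 of 181 class II cells and 4 of 3138 others had Cd40 at 1000 UMIs. At 5000 UMIs, class II was in 36.4% (10.9% to 69.2%) of its 11 Cd40 cells and 11.9% of the others.

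Cd86 and Icosl gave smaller contrasts. In library 2 Cd86 was found in 33.9% (31.6% to 36.4%) of class II cells and 26.8% (22.4% to 31.7%) of others at 1000 UMIs. Within microglia-like clusters these shares were 35.5% (33.1% to 38.1%) and 33.0% (27.6% to 38.8%), which overlap. Icosl was found in 8.13% and 7.32% at 1000 UMIs, without separation, and in 37.5% (35.2% to 39.9%) and 20.1% (14.1% to 27.3%) at 5000. Within microglia-like clusters the Icosl shares at 1000 UMIs were 8.61% with class II and 9.47% without. The CPM ratio of those cells was 1.10 (0.964 to 1.26). Shares at 5000 UMIs were not taken within those clusters, and the part of other kinds of cell in them was not tested. In library 1 at 5000 UMIs the Icosl shares were 18.3% and 18.2% and those of Cd86 81.2% and 80.8%. Cd80 shares overlapped in both libraries at 1000 UMIs (1.10% and 0.924% in library 1, 0.845% and 0.271% in library 2).

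The members rarely met in 1 cell beyond Cd86. At 5000 UMIs, 1.03% of library 1 cells and 4.41% of library 2 cells held 3 or more of the 5, and 0 cells held all. Among the 138 Cd40 cells of library 2, 46.4% (37.9% to 55.1%) had Icosl, against 35.2% (32.9% to 37.5%) of cells without Cd40. Cd86 was in 87.7% and 83.7% of those cells, and Cd80 in 2.90% and 3.20%. Icosl cells of library 2 held Cd86 in 87.2% (84.3% to 89.6%), the others in 82.3% (80.0% to 84.5%). None of the 11 Pdcd1lg2 cells of library 2 had Cd40, where 7.74% of the other cells did. With 11 cells the exact interval of that share reaches 28.5%.

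Clusters were formed without the costimulatory, class II and other listed genes. In library 2, Cd40 was at 57.4 CPM (47.9 to 68.2) in cluster 9, 214 cells led by the interferon-induced genes Rsad2, Ifit3 and Ifit2. It was at 34.6 CPM (30.5 to 39.1) in cluster 15, 635 cells led by the chemokine genes Cxcl9 and Ccl5, and at 25.7 CPM (17.4 to 36.4) in cluster 14, 86 dividing cells led by Mki67. Cluster 13, the largest with 778 cells and led by H2-Aa and H2-Ab1, had 7.61 CPM (5.79 to 9.81). The highest thus stood 7.54-fold above the lowest (5.50 to 10.4), with neighbouring clusters 15 and 14 overlapping in their intervals.

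Class II did not follow that order. The 3 chains summed to 5364 CPM in cluster 9, 6178 in cluster 15, 4823 in cluster 14 and 6151 in cluster 13. Cluster 13 therefore combined a class II level similar to that of cluster 15 with 7.61 against 34.6 CPM of Cd40. Genes of the interferon gamma response list summed to 8055, 5987, 6299 and 4525 CPM in clusters 9, 15, 14 and 13. Over those 4 clusters Cd86 spanned 380 to 481 CPM, Icosl 94.4 to 113 CPM and Cd80 6.62 to 9.25 CPM. Pdcd1lg2 spanned 0.828 to 2.14 CPM, 2.59-fold with an interval of 0.402 to 109.

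How far Cd40 varies depends on how finely the cells are divided. At Leiden resolution 0.5 library 2 had 2 microglia-like clusters, a dividing one of 90 cells at 24.7 CPM and another of 1624 at 25.6 CPM, 1.04-fold apart. At resolution 2 it had 7, from 47.2 CPM in a cluster led by Rsad2 and Ifit3 down to 2.91 CPM in 387 cells led by H2-Ab1, H2-Aa and C4b, 16.2-fold apart. That last cluster held class II chains at 6215 CPM, but it is a finer division of the same library 2 cells and not a separate observation. Other clusters of that division differed. The one with the most class II (7067 CPM) had Cd40 at 42.0 CPM, and the one with the least (2377 CPM) had 3.48 CPM.

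**Figure D3:**
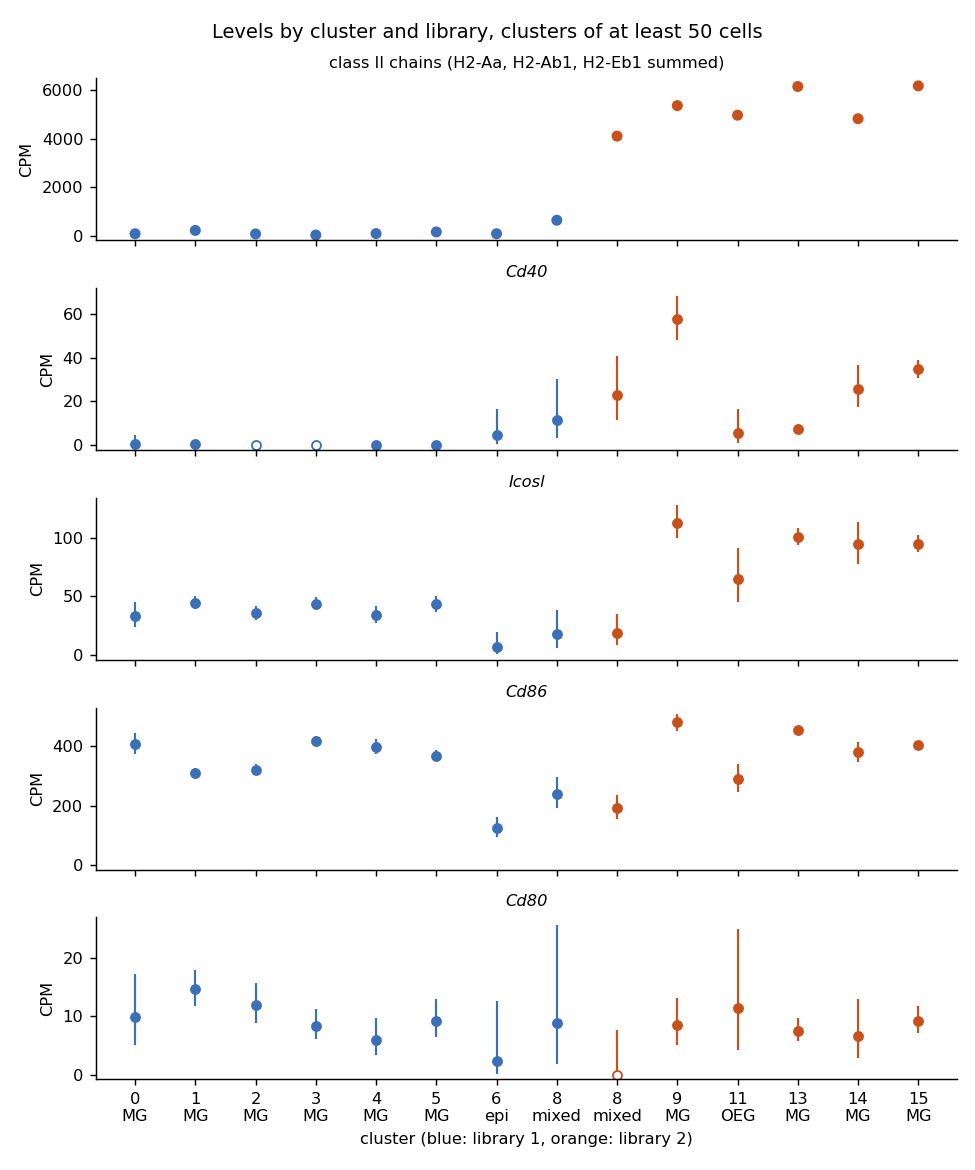
CPM of the class II chains and of Cd40, Icosl, Cd86 and Cd80 in each cluster and library with at least 50 cells (MG, microglia-like; OEG, olfactory ensheathing glia-like; epi, olfactory or nasal epithelium-like), with exact Poisson 95% intervals for the single genes. Among microglia-like clusters of library 2, Cd40 spans 7.61 to 57.4 CPM while class II chains span 4823 to 6178 CPM.

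Inside those clusters Cd40 also varied with class II. From 0 to 11 or more thinned class II UMIs it went from 20.4 to 57.0 CPM in cluster 15 (2.79-fold, 1.74 to 4.62) and from 19.8 to 67.3 CPM in cluster 9 (3.40-fold, 1.504 to 8.38). In cluster 13 it went from 3.83 to 9.47 CPM, 2.48-fold with an interval of 0.777 to 10.3 on 4 and 14 UMIs. Cells of cluster 13 with 11 or more class II UMIs, at 9.47 CPM (5.18 to 15.9), had less Cd40 than cells of cluster 15 with 0 (20.4 CPM, 13.1 to 30.4), with intervals that overlap slightly. Icosl in cluster 15 was at 79.2 and 115 CPM in the end groups (1.45-fold, 1.11 to 1.90).

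**Figure D4:**
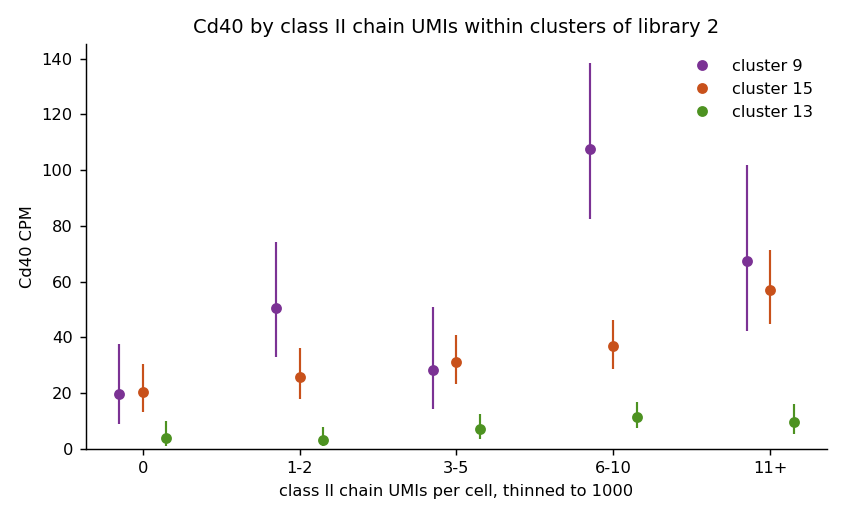
Cd40 CPM in library 2 by thinned class II chain UMIs within clusters 9, 13 and 15, with exact Poisson 95% intervals. Cluster 13 stays between 3.02 and 11.3 CPM in all 5 groups, and cluster 15 goes from 20.4 to 57.0 CPM.

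In library 1 the 6 large microglia-like clusters, numbered 0 to 5, had between 0 and 4 Cd40 UMIs each. Cluster 3 had 0 in 824 cells, with an exact interval up to 0.660 CPM. Cd80 was at 14.6 CPM (11.8 to 17.9) in cluster 1, led by Gadd45b and Il1a, and at 5.90 CPM (3.30 to 9.73) in cluster 4, a 2.48-fold range. Cd86 ran from 312 CPM in cluster 1 to 417 CPM in cluster 3, and Icosl from 33.1 to 44.6 CPM. Cd80 was thus highest in the cluster where Cd86 was lowest.

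Among other kinds of cell, border macrophage-like cells (43, all of library 1) had 464 CPM of Cd86 (405 to 530), 71.8 CPM of Icosl (49.7 to 100.3), 19.0 CPM of Cd80 on 9 UMIs and 8.44 CPM of Cd40 on 4 UMIs. These Cd86 and Icosl levels lay above the 362 and 41.4 CPM of microglia-like cells in library 1. Olfactory sensory neuron-like cells, which should lack these genes, measured the background of free RNA in library 2. Of 37 such cells with a median of 11227 UMIs, 0 had Cd40, Cd80, Icosl or Pdcd1lg2, with an exact interval up to 9.49%, and 1 had a Cd86 UMI. Microglia-like cells of library 2, with a median of 9919 UMIs, had Cd40 in 14.3%, Icosl in 57.7% and Cd86 in 96.3%; the Cd80 and Pdcd1lg2 shares of 8.39% and 1.75% lie below that 9.49%. Olfactory ensheathing glia-like cells of library 2 had Cd86 at 289 CPM and Icosl at 65.1 CPM. Their cluster, taken over both libraries together, had all 7 microglial markers at 100 CPM or more, and the part of doublets in this was not tested.

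Cells with Cd40 also had more of other immune transcripts. At 5000 UMIs in library 2, the 138 Cd40 cells carried Cxcl9, an interferon gamma-induced chemokine gene, at 1484 CPM, against 212 CPM in the 1655 cells without. Cd274, the gene of PD-L1, was at 277 and 94.5 CPM, Ciita at 56.6 and 37.2 CPM, and the class II chains at 8069 and 5569 CPM. The homeostatic microglial gene P2ry12 was at 255 and 408 CPM. In library 1 the 11 Cd40 cells had Cxcl9 at 1277 CPM, the others 7.499 CPM. Library 1 cells in library 2 clusters were not left out of that comparison. Summed dendritic cell markers were at 174 and 94.9 CPM in the library 2 cells with and without Cd40, B cell markers at 52.4 and 62.9 CPM, and their part in the result was not tested.

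Cd40 also differed when each library was divided at its median of the interferon gamma response list, after thinning. The medians were only 1 UMI of the list in library 1 and 4 in library 2. Of the list's 1620 CPM in library 1, Irf8 made 474, Cxcl10 380, Irf1 234 and Psmb8 212 CPM. Which genes of the list carry the Cd40 difference was not tested. In library 2 Cd40 was at 39.9 CPM above the median and 8.01 CPM at or below it (4.98-fold, 3.91 to 6.41), and in library 1 at 2.76 and 0.578 CPM (4.77-fold, 2.19 to 11.5). Of the 37 library 1 Cd40 UMIs, 18 lay in 4 cells of library 2 clusters, and this division was not repeated without those cells. Icosl was 1.37-fold (1.25 to 1.499) and 1.26-fold (1.11 to 1.42) higher above the median in libraries 2 and 1. Cd86 was 1.10-fold (1.06 to 1.15) and 1.01-fold (0.970 to 1.06), and Cd80 1.05-fold (0.758 to 1.44) and 1.198-fold (0.933 to 1.53). Ciita and Cd274 are themselves on that list, but no member is.

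By microglial markers the order was reversed for Cd40. Cells at or below the median of the 7 markers had 33.0 CPM and cells above it 12.4 CPM in library 2, 2.65-fold (2.14 to 3.32), and in library 1 the values were 2.31 and 0.274 CPM, 8.42-fold (2.65 to 42.9). The library 1 fold can rest on few cells: 18 of the 37 Cd40 UMIs lay in 4 cells of library 2 clusters. It was not computed without them. Cd80 and Icosl showed no such difference in either library (Icosl 93.2 and 94.7 CPM in library 2), and Cd86 was 1.16-fold higher above the median in library 1 and 1.07-fold in library 2.

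Early response and stress genes, which dissociation of tissue can induce, were lower in library 2 and ran opposite to Cd40. Their sum was 47355 CPM in library 1, against 16452 CPM in library 2, and 10 of the 12 were at least 2-fold lower in library 2, among them Atf3 (7759 and 1040 CPM) and Jun (10544 and 2958 CPM). Cells above their library's median had less Cd40: 0.155 CPM on 2 UMIs against 2.73 CPM in library 1 (17.6-fold, 4.52 to 151), and 19.7 against 28.5 CPM in library 2 (1.44-fold, 1.201 to 1.74). Here too 18 of the 37 library 1 Cd40 UMIs lay in 4 cells of library 2 clusters, which were not left out. Cd86 and Icosl were slightly higher above the median in library 2 (1.18-fold and 1.14-fold). With these genes, the mitochondrial, the ribosomal protein and the haemoglobin genes removed from the totals, the Cd86 ratio of the libraries was 1.22-fold. What part early response genes have in the library differences was not tested.

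Markers of other antigen-presenting cells were summed beside these results. The 9 dendritic cell markers summed to 296 and 101 CPM, of which the actin-bundling gene Fscn1 made 281 and 34.9 CPM, while Flt3, which marks dendritic cells more narrowly, was at 0.505 and 0.493 CPM. The integrin gene Itgax was at 8.42 and 61.8 CPM. The 7 B cell markers summed to 51.6 and 61.9 CPM, with Cd79a at 41 and 0 UMIs, and 4 of 7 at 0 in library 2. Border macrophage markers summed to 98.5 and 30.8 CPM. Monocyte markers summed to 11.3 and 73.1 CPM, of which Plac8 made 7.995 and 70.9 CPM, while Ccr2 was at 2.13 and 0.592 CPM. Their part in the member values was not tested. With cells holding 2 or more dendritic cell, B cell or border macrophage markers left out, the Cd40 ratio was 24.8-fold and that of Pdcd1lg2 25.95-fold. The Pdcd1lg2 value rests on at most 4 UMIs of library 1, and no interval was taken for it.

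The genes whose pattern over 14 cluster-by-library units of at least 50 cells was closest to each member are given as a description, since units of a library share its depth and origin and 9779 genes were compared. For Cd40 they were Oasl1 (Pearson r 0.954), Ifi213, Ifi206, Phf11a and Phf11d, while H2-Ab1 reached 0.796. For Icosl they were Sh3bp2 (0.975), Tpcn2, Lcp2, Adcy7 and Apobec1, with H2-Ab1 at 0.656. Cd86 was closest to Rhoh (0.976), Snx20, Adam17, Slc29a3 and Lrrc3, with H2-Ab1 at 0.228. Cd80 was closest to Disc1 (0.927), Kctd12, Irak1, Itgav and Crlf3, with H2-Ab1 at -0.09.

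The wider network is given by counts of genes past 2-fold, to be read against the 14.2% of all genes higher in library 2 and the 8.37% higher in library 1. Of the class II pathway list, 9 of 10 genes with 20 or more UMIs were at least 2-fold higher in library 2 and 0 lower, with a median log2 ratio of 2.82. Among the other B7 and butyrophilin ligands 2 of 4 were higher, Cd274 (8.65 and 108 CPM) and Ildr2 (6.60 and 19.3 CPM). The other 2 were lower, Cd276, which encodes B7-H3 (10.5 and 1.18 CPM), and Vsir, which encodes the checkpoint protein VISTA (749 and 340 CPM).

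Ligands and receptors of the TNF superfamily were sparse. At least 2-fold higher in library 2 were 4 of 6, led by the CD30 ligand gene Tnfsf8 at 1.01 and 7.15 CPM, and 1 was lower, the GITR ligand gene Tnfsf18 with 18 and 3 UMIs. Tnfsf9, the 4-1BB ligand gene, was at 5.20 and 2.81 CPM, a ratio of 0.540 within the 2-fold limit. Of 13 other contact ligands 3 were higher, Itgal (0.970 and 37.1 CPM), Slamf7 (1.40 and 12.4 CPM) and Timd4, and 1 was lower, a share near that of all genes: Cd83 (626 and 179 CPM), a surface marker of mature dendritic cells. Icam1, the ligand of the integrin LFA-1, was at 365 and 255 CPM.

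T cell partner receptors and other binding partners of the ligands gave few UMIs, apart from Rgmb. Of 9 listed, 3 reached 20 UMIs and 0 differed 2-fold: Icos at 1.90 and 2.12 CPM, Pdcd1 at 3.53 and 3.16 CPM, and Rgmb, which encodes a further binding partner of PD-L2, at 54.5 and 84.3 CPM. T or NK cell markers summed to 0.427 and 1.92 CPM.

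Genes of CD40 signalling did not parallel Cd40. Of 15, 0 were at least 2-fold higher and 4 were at least 2-fold lower in library 2: the NF-kB subunit genes Rel (545 and 135 CPM) and Rela (102 and 49.995 CPM), the NF-kB inhibitor gene Tnfaip3 (582 and 180 CPM) and the adaptor gene Traf1 (6.36 and 2.27 CPM). Relb, of the non-canonical NF-kB pathway that CD40 can engage, was at 91.2 and 66.8 CPM. The median log2 ratio was -0.45, against 0.04 over all genes.

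Of 12 cytokine genes that direct T cells, 4 were higher and 1 was lower, the latter a share near that of all genes. Il12b, the shared subunit of IL-12 and IL-23, was at 2.45 and 10.6 CPM, Il23a at 0.310 and 1.33 CPM, Il27 at 6.09 and 39.8 CPM, and Il18bp, a decoy that binds IL-18, at 3.84 and 145 CPM. Il1a was lower, at 871 and 345 CPM, and Tnf was at 328 and 406 CPM. In the interferon gamma response list 15 of 18 genes were at least 2-fold higher, with Gbp2 at 15.9 and 490 CPM and Iigp1 at 5.78 and 233 CPM, and 0 were lower.

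**Figure D5:**
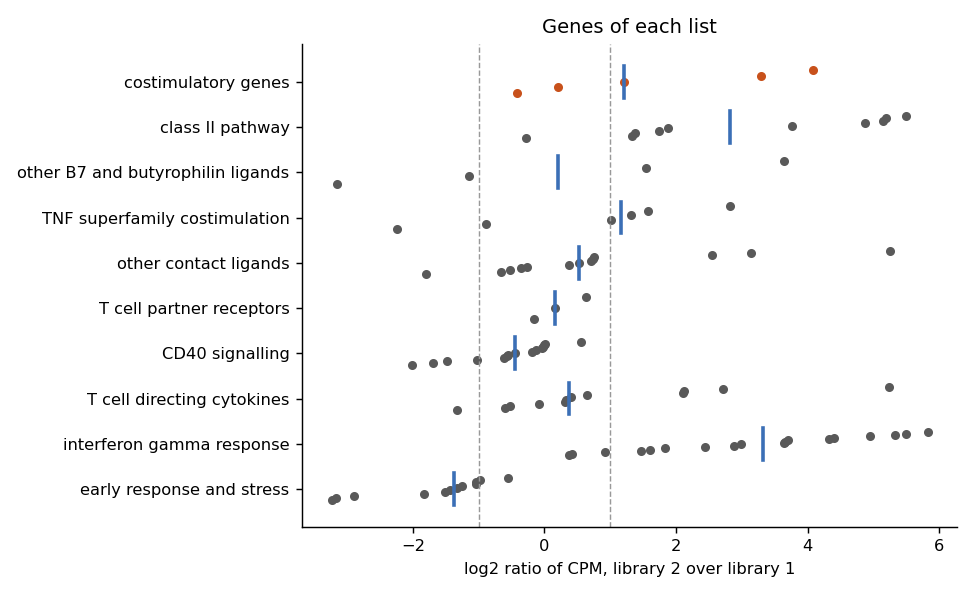
Log2 ratio of CPM, library 2 over library 1, for each gene with at least 20 UMIs in 10 lists; points are genes, blue bars list medians and dashed lines the 2-fold limits. The costimulatory genes run from -0.41 (Cd80) to 4.08 (Cd40), and 4 of 15 CD40 signalling genes lie left of the lower limit with 0 right of the upper.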

How the data were processed

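Whole-number UMI counts of each gene in each barcode, not normalized, were deposited as 1 matrix that Cell Ranger 3.1.0 wrote, per the file headers. Bcl2fastq and UMI-tools are also named in the submitters' processing notes. For the genome build and annotation, nothing is given in the sources used here: gene names are those of the file and the only coordinates are those of the RefSeq promoter table, in which 3 of the 5 members matched by symbol.

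The rest was computed here with igraph 0.11.9, pandas 2.3.3, SciPy 1.17.1, NumPy 2.4.6 and Scanpy 1.11.5 under Python 3.11.15. The filter asked for 200 or more genes and a mitochondrial share of 20% or less, and kept 25766058 and 20282053 UMIs in all. UMIs were summed and divided by the cells' total (CPM), with exact Poisson intervals. Ratios used a conditional binomial interval and shares a Clopper-Pearson interval. Neither covers variation between animals, which were pooled. For co-detection each cell was thinned to 1000 UMIs, leaving out 87 and 15 shallower cells (386 and 129 at 5000 UMIs). Cells were clustered by the Leiden method at resolution 1 on 2000 variable genes without the listed genes, 30 components and 15 neighbours. A cluster was named from the marker list that put 3 or more genes among its 50 highest folds (mixed where several lists did), otherwise microglia-like with at least 5 of 7 microglia markers at 100 CPM. Functions that compute the ratios, intervals and thinning were tested on simulated data.

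Beside the members and class II genes, named genes were, per list, the 4 most abundant by summed CPM and the 4 with the log2 ratio farthest from 0; for likeness, the 5 highest correlations of log2(CPM + 10) among genes with at least 200 UMIs. Traits of Cd40 cells, marker genes of other cell types and genes leading clusters were named after their values were seen. The members and lists were chosen with earlier results of these data known. Hhla2 was not used here. Alternatives changed the cell filter, totals, depth, class II measure, clustering resolution and gene minimum.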

Additional observations from a re-analysis of the deposited data

Results flagged for a closer look

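Barcodes left out for few genes or a high mitochondrial share still held some members, above the 3 counts taken as a floor. In library 1, 432 such barcodes held 13 Cd86 UMIs, or 25.8 CPM (13.8 to 44.2), against 356 CPM in kept cells. In library 2, 512 such barcodes held 13 Cd86 UMIs (13.1 CPM, 6.99 to 22.4), 7 Icosl UMIs (7.07 CPM, 2.84 to 14.6) and 5 Cd40 UMIs (5.05 CPM, 1.64 to 11.8). Each of these levels lay below that of the kept cells of the same library.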

How the results depend on the processing

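Of 160 alternative values for 44 results, 135 stayed within the interval of the main value (or within 1.5 times for counts of genes). The other 25 moved, and 0 of them reversed a direction that the main interval showed. Library ratios at equal class II were not among the 44 results. There the Cd86 ratio at 0 class II UMIs did reverse, from 0.934 (0.879 to 0.992) to 1.13 (1.06 to 1.202) within microglia-like clusters. The log2 Cd40 ratio of library 2 over library 1 was 4.67 without the 5% of cells with the most UMIs, 4.63 without cells carrying other cell types' markers and 5.02 without library 1 cells in library 2 clusters. For Cd86 that ratio was 0.28 with reduced totals and 0.26 in microglia-like clusters. By class II, Cd40 gave 1.41 on Cd74 and 4.54 without cells carrying other markers in library 1, where it gave 2.07 without cells in library 2 clusters, and 2.52 and 1.03 in library 2. In library 2, Cd86 gave 0.63 on Cd74 and 0.13 in microglia-like clusters, and Icosl 1.10 and 0.30. In co-detection the log2 ratio of shares on Cd74 was 0.44 for Cd40 in library 1 and 0.69 for Cd86 in library 2. At 5000 UMIs it was 2.68 for Cd40 in library 2, and for Icosl it was 0.87 at 2000 and 0.90 at 5000 UMIs. The log2 range of Cd40 over library 2 clusters was 0.052 at resolution 0.5, with fewer clusters, and 4.02 at resolution 2, with more. Genes at least 2-fold higher numbered 1979 in library 2 and 1162 in library 1, and 1077 and 716 with at least 100 UMIs, where fewer genes were tested, or 383 and 267 with a pseudocount of 10 CPM, which shrinks low genes. The depth of 5000 UMIs and the exclusions of cells by other cell types' markers or by cluster were chosen after seeing the data. For the other moved values the cause was not tested. The sparse genes Cd80 and Pdcd1lg2 are limited by depth in every co-detection. No paired analysis was possible because each group is 1 sample.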
